A study of Mus musculus with 6 samples.

Results

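The genes described here are 7 regulators of G protein signalling (Rgs1, Rgs2, Rgs3, Rgs10, Rgs14, Rgs16 and Rgs19) and 3 receptors that position lymphocytes within and between organs (S1pr1, S1pr4 and Gpr183). They were taken by gene symbol from count files of 23282 entries each, and all 10 were found once. Regulatory T cells (Treg), which hold immune responses in check, were FACS-sorted from C57BL/6 spleen and not stimulated. The comparison was between IPMK cKO Treg, which carry a conditional knockout of inositol polyphosphate multikinase, and wild type Treg, with 3 libraries in each group. IPMK is a kinase of inositol phosphates and phosphoinositides, and the study set the transcriptomes of Treg with and without it side by side. For the Cre driver, the deleted part of the gene, the age and sex of the mice and any pooling of animals, the sources used here say nothing. The libraries are labelled as biological replicates without saying that each was a separate animal; p-values therefore reflect the spread among these libraries, which may be technical.

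RGS proteins end signals from G protein-coupled receptors by speeding the hydrolysis of GTP on the Gα subunit, so a cell that makes more of them responds for a shorter time to the same chemokine or lipid. Lymphocytes use this brake to decide whether to stay in a lymphoid organ or leave it. S1PR1 senses sphingosine 1-phosphate (S1P), which is high in blood and lymph, and draws T cells out of lymphoid organs. S1PR4 is a second S1P receptor of lymphocytes, and GPR183, also called EBI2, follows oxysterols to particular zones of the spleen and lymph nodes.

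Library depth was 8363324 to 8980395 counts in IPMK cKO and 7464546 to 8246993 in wild type, of which the ribosomal RNA precursor Rn45s took 19.9% to 32.1% and 16.7% to 31.7%. Ipmk had 3, 21 and 0 counts in IPMK cKO replicates 1 to 3, against 129, 77 and 99 in wild type replicates 1 to 3. All 9 markers of T cells and Treg were counted, with a summed level of 2838 to 3461 CPM (counts scaled to a common library size) in IPMK cKO and 2966 to 3824 CPM in wild type; the most abundant were Ikzf2 and Cd3d. Foxp3, which defines the lineage, was at 85.1, 72.0 and 82.3 CPM in IPMK cKO and at 10.3, 80.6 and 29.0 CPM in wild type. The summed levels of markers of other cell types were low by comparison. They reached at most 76.4 and 42.5 CPM in IPMK cKO and wild type for CD8 T and NK cells (8 genes, led by Nkg7 and Eomes), 41.5 and 28.4 CPM for B cells (10 genes, led by Cd79b and Cr2), and 36.6 and 54.2 CPM for plasma cells (5 genes, led by Xbp1 and Jchain). The maxima were 77.6 and 70.5 CPM for myeloid cells (12 genes, led by Cst3 and Itgam), 19.3 and 60.4 CPM for erythroid cells (8 genes, led by Hba-a1 and Alas2) and 8.30 and 3.28 CPM for platelets (6 genes, led by Itga2b and Gp1ba). Markers with no count in any library included Cd8a, Ncr1, Klrd1, Pax5, Blk, Tnfrsf17, Cd14, Adgre1, Fcgr1, Clec4a2, Spi1, Slc4a1, Pf4, Ppbp and Gp9. Of the tested markers, Eomes and Tnfrsf18 lay wholly higher in IPMK cKO and none lay wholly lower. Over all genes tested, 4.74% and 5.66% did. Eomes had 22.5, 11.8 and 15.0 CPM in IPMK cKO, against 0, 1.91 and 3.85 CPM in wild type. Neither gene was called, and Tnfrsf18 was named after its values were seen. IPMK cKO replicate 1 stood apart from the other libraries over the whole transcriptome: it was the lowest of the 6 for 34.7% of all genes tested and the highest for 29.2%.

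All 10 genes were expressed in both groups and passed the filter on low counts. Since each library reads a tag at the 3′ end of a transcript, levels in CPM were compared between genes without division by transcript length. S1pr1 had the highest mean in both groups, at 234 ± 139 CPM in IPMK cKO and 230.4 ± 54.1 CPM in wild type (SD, n = 3 each). Rgs16 had the lowest, at 5.40 ± 4.21 and 17.5 ± 7.61 CPM. By mean level the other genes ran, in IPMK cKO, Rgs10, S1pr4, Rgs1, Rgs2, Rgs14, Gpr183, Rgs19 and Rgs3. In wild type they ran Rgs1, S1pr4, Rgs10, Rgs14, Rgs2, Gpr183, Rgs19 and Rgs3. The ranges of neighbours in these orders overlapped for 8 of 9 pairs in IPMK cKO and for 9 of 9 in wild type. The exception was Rgs16, whose highest IPMK cKO library lay below the lowest one of Rgs3. Ranges leave out that the genes were measured in the same libraries. Compared within libraries, Rgs1 was above Rgs2 and Rgs19 above Rgs3 in all 3 IPMK cKO libraries. Rgs3 was above Rgs16 in all 3 libraries of each group. The other neighbours changed order between libraries.

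**Figure D1:**
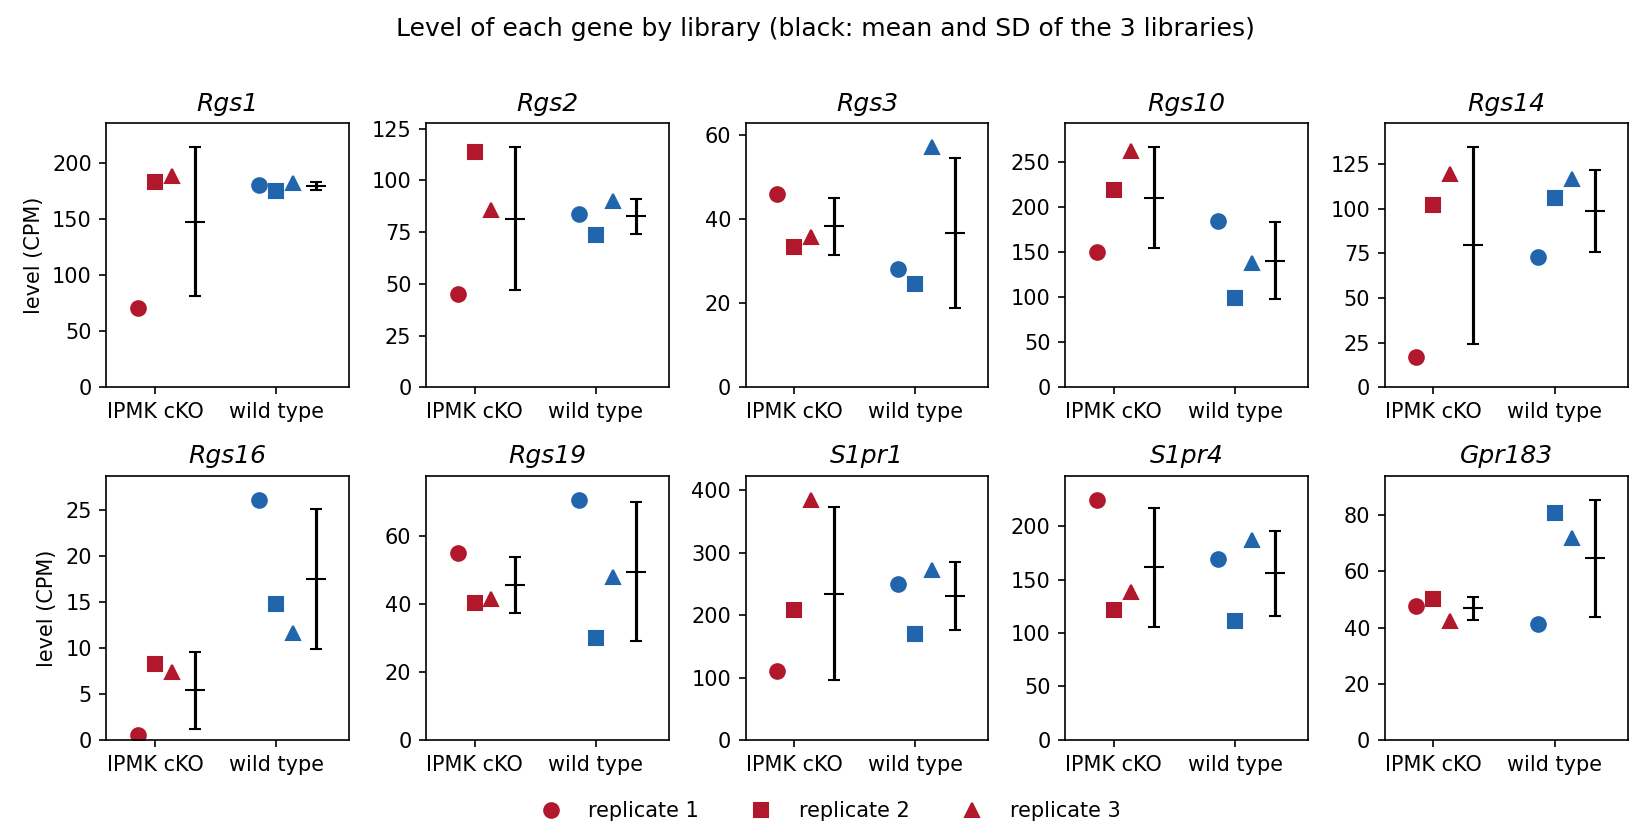
Level of each of the 10 genes in CPM (vertical axes, each from 0) in the 3 IPMK cKO libraries (red) and the 3 wild type libraries (blue), with the replicate number given by the marker shape and the mean and SD in black. Only for Rgs16 do all red points lie below all blue points, and the red circle (IPMK cKO replicate 1) is the lowest point for 5 genes.

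None of the 10 genes was called by edgeR's quasi-likelihood test (adjusted p = 0.9999 for each). The background was the same, with 0% of the 10475 genes tested called higher and 0% called lower. At an unadjusted p under 0.05 there were 0 of the 10 genes, against 2.56% of all genes tested in either direction (1.37% higher and 1.19% lower). DESeq2 also called 0 of the 10, with 0.0283% of its genes called. Estimates were below 0 for 6 genes and above 0 for 4, with a median log2 fold change of −0.07 (IPMK cKO over wild type), and the median over all genes tested was +0.03. The 95% intervals below show which changes these libraries leave possible for each gene.

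Rgs16 (ENSMUSG00000026475; mm10, chromosome 1, 153740349 to 153745468, plus strand), which encodes a small RGS protein that dampens chemokine receptor signals and is induced when T cells are activated, was the member with the largest difference. It had 4, 63 and 73 counts in IPMK cKO replicates 1 to 3, against 217, 108 and 112 in wild type. On the common scale this was 0.563, 8.23 and 7.41 CPM in IPMK cKO and 26.1, 14.8 and 11.6 CPM in wild type, with no overlap between the groups. The mean was 3.24-fold higher in wild type. The log2 fold change was −1.69 (SE 1.09, 95% interval −4.10 to 0.72), and the exact permutation test, two-sided, gave p = 0.1, the smallest that 3 against 3 libraries allow. Rgs16 was the only one of the 10 genes whose groups did not overlap, and over all genes tested 5.66% lay wholly lower and 4.74% wholly higher in IPMK cKO. The size of the difference rested partly on IPMK cKO replicate 1, where 4 counts give an exact Poisson 95% interval of 0.153 to 1.44 CPM. That interval leaves out variation between libraries. Copies of the same molecule, if they were counted more than once, may make it too narrow even for counting error. Without IPMK cKO replicate 1 the estimate was −1.17, and without both libraries numbered 1 it was −0.76. In bulk RNA of this kind, fewer cells that express a gene and less RNA in each cell cannot be told apart.

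The sequence upstream of Rgs16 is shown with that of Rgs10, since these were the members with the lowest and the highest estimate. Each run is the 250 bases before the transcription start in RefSeq on GRCm38.p6, which is the assembly behind mm10. It is chr1:153740103-153740352 on the plus strand for Rgs16 and chr7:128418173-128418422 on the minus strand for Rgs10. The annotations differ for Rgs10: by its GENCODE coordinates (128373621 to 128418758), the run lies inside the gene and not upstream of it. Capitals mark matches to CACCC or its reverse complement GGGTG, the core recognised by KLF factors.
Rgs16: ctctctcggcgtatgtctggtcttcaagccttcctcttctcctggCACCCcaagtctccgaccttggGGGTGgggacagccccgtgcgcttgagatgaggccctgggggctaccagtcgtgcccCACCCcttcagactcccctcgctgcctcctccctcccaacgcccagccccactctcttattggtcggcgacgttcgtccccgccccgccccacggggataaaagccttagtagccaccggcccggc
Rgs10: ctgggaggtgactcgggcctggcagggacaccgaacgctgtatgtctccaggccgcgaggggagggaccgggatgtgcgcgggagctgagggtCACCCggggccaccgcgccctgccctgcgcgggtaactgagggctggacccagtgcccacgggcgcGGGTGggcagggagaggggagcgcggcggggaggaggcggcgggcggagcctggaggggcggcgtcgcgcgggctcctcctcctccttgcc

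The Rgs16 run held 3 such matches and the Rgs10 run 2, where 52.0% of the 32851 RefSeq promoters of the same length held at least 1. Neither run held the core GGAAA of NFAT, the transcription factor that calcium and calcineurin activate, on either strand; 55.6% of the promoters did. Both also lacked the FOXO core TGTTT, which 46.4% held, and the AP-1 motif TGANTCA, which 6.75% held. These are matches of letters in a short window and not binding sites. GC content was 66.4% for Rgs16 and 76.4% for Rgs10. Of the 10 genes, 7 had a promoter entry. Matches to CACCC or GGGTG were not particular to Rgs16 and Rgs10. Every entry of Rgs2, Rgs3, Rgs19 and S1pr4 held 1 or 2, and that of Gpr183 held 0.

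Rgs1 (ENSMUSG00000026358) and Rgs2 (ENSMUSG00000026360) lie on chromosome 1 (mm10, minus strand, 144242296 to 144249242 and 143999338 to 144004161), and both encode small RGS proteins. Rgs1 shortens responses to chemokines and S1P in lymphocytes, and Rgs2 acts preferentially on the Gαq class. Rgs1 had 70.8, 183 and 189 CPM in IPMK cKO replicates 1 to 3, against 180, 175 and 182 CPM in wild type. The wild type SD was 1.98% of the mean, and 2 of the IPMK cKO libraries were just above them while replicate 1 was far below. The log2 fold change was −0.28 (SE 0.37, 95% interval −1.10 to 0.54), and it was +0.05 without IPMK cKO replicate 1. Rgs2 had 45.2, 114 and 85.5 CPM in IPMK cKO and 84.0, 73.8 and 90.3 CPM in wild type. Again IPMK cKO replicate 1 was the lowest library and replicate 2 the highest, on either side of the wild type range. The estimate for Rgs2 was −0.02 (SE 0.39, 95% interval −0.87 to 0.83), and +0.26 without IPMK cKO replicate 1.

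Rgs10 (ENSMUSG00000030844; chromosome 7, 128373621 to 128418758, minus strand), a short RGS protein that is abundant in leukocytes and acts on the Gαi class, had the highest estimate of the 10 genes. It had 150.4, 218 and 262 CPM in IPMK cKO, against 185, 99.5 and 137 CPM in wild type. The groups overlapped through IPMK cKO replicate 1, which lay below wild type replicate 1; the other 2 IPMK cKO libraries were above every wild type library. The means were 210.2 ± 56.1 and 141 ± 42.8 CPM (SD, n = 3 each), with a log2 fold change of +0.58 (SE 0.34, 95% interval −0.16 to 1.32; exact permutation p = 0.2, two-sided). Without IPMK cKO replicate 1 the estimate was +0.77, and without wild type replicate 2 it was +0.37.

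Rgs14 (ENSMUSG00000052087; chromosome 13, 55369732 to 55384687, plus strand), a larger protein that joins an RGS domain to a second motif that holds Gαi in its GDP-bound form, was at 16.7, 102 and 119 CPM in IPMK cKO and at 72.8, 106 and 117 CPM in wild type. IPMK cKO replicate 1 was again the lowest library, and the other IPMK cKO libraries fell in or just above the wild type range. The log2 fold change was −0.31 (SE 0.58, 95% interval −1.58 to 0.96). Without IPMK cKO replicate 1 it was +0.17. Its highest library was 7.13-fold above its lowest, a wider range than for any other member except Rgs16 (46.4-fold).

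Rgs3 (ENSMUSG00000059810; chromosome 4, 62559847 to 62704001, plus strand) and Rgs19 (ENSMUSG00000002458; chromosome 2, 181688419 to 181693977, minus strand), a further pair of brakes on Gα signals, did not share the low value in IPMK cKO replicate 1. Rgs3 had 45.9, 33.2 and 35.6 CPM in IPMK cKO and 28.2, 24.5 and 57.0 CPM in wild type. The IPMK cKO libraries lay inside the wild type range. Rgs19, also named GAIP, had 55.0, 40.2 and 41.5 CPM in IPMK cKO and 70.7, 30.1 and 48.1 CPM in wild type, likewise inside the wild type range. The log2 fold changes were +0.06 for Rgs3 (SE 0.49, 95% interval −1.01 to 1.14) and −0.12 for Rgs19 (SE 0.44, 95% interval −1.09 to 0.84). Leaving out single libraries moved Rgs3 between −0.17 and +0.54 and Rgs19 between −0.40 and +0.22.

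S1pr1 (ENSMUSG00000045092; chromosome 3, 115710433 to 115715072, minus strand), the egress receptor, was the most abundant of the 10 genes on average and stood at percentile 94.6 of all genes tested by mean level. It had 109.9, 209 and 385 CPM in IPMK cKO, against 249.7, 169 and 272 CPM in wild type. The IPMK cKO libraries held both the lowest and the highest of the 6 values, so the similar means hide a spread that was larger in IPMK cKO (SD 59.4% of the mean) than in wild type (23.5%). The log2 fold change was +0.03 (SE 0.42). Its 95% interval, −0.90 to 0.95, covers a fold of 0.537 to 1.93. The estimate was +0.36 when IPMK cKO replicate 1 was left out and −0.53 when replicate 3 was. These libraries leave the direction of any S1pr1 change undetermined.

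S1pr4 (ENSMUSG00000044199; chromosome 10, 81497747 to 81500132, minus strand) had 225, 122 and 138 CPM in IPMK cKO and 169, 111 and 187 CPM in wild type. Unlike S1pr1, it was highest in IPMK cKO replicate 1, and the groups overlapped. The log2 fold change was +0.05 (SE 0.34, 95% interval −0.70 to 0.80), and −0.27 without that library. Gpr183 had 47.7, 50.3 and 42.5 CPM in IPMK cKO and 41.1, 80.8 and 72.1 CPM in wild type. The 3 IPMK cKO libraries were close together (46.8 ± 3.96 CPM, SD, n = 3), and they lay above wild type replicate 1 and below wild type replicates 2 and 3 (64.7 ± 20.8 CPM in all, SD, n = 3). The log2 fold change of Gpr183 was −0.47 (SE 0.39, 95% interval −1.33 to 0.40), and −0.71 without wild type replicate 1. Gpr183 (ENSMUSG00000051212; chromosome 14, 121952551 to 121965195, minus strand) has its 3′ end inside Ubac2 on the opposite strand, and the 3′ end of Rgs16 lies inside the antisense gene Gm28513. Use of strand in the counting is not stated, so reads of these pairs cannot be told apart with certainty. Ubac2 was counted separately, at 69.4 to 86.6 CPM in IPMK cKO and 50.1 to 65.3 CPM in wild type.

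**Figure D2:**
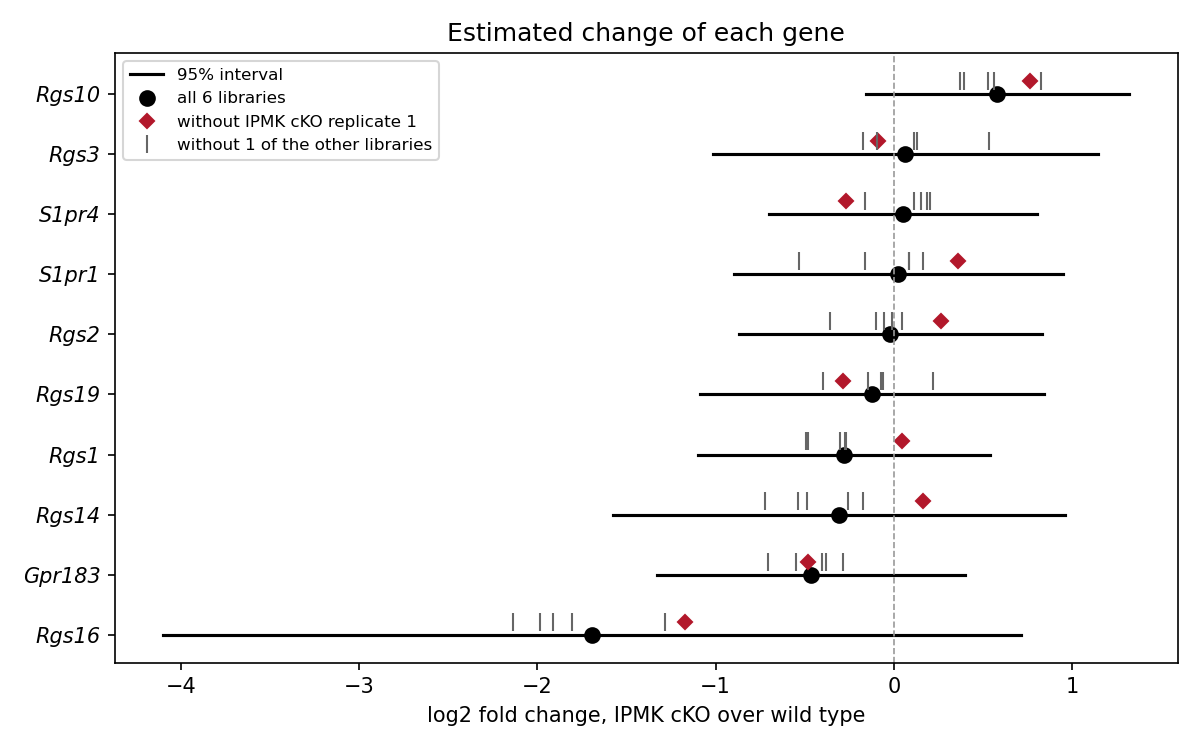
Log2 fold change of IPMK cKO over wild type (horizontal axis) for each gene with all 6 libraries (black points) and its 95% interval (black lines), and the estimate after leaving out IPMK cKO replicate 1 (red diamonds) or 1 of the other libraries (grey ticks). Every interval crosses 0; all marks of Rgs10 lie above 0 and all marks of Rgs16 and Gpr183 below it.

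Much of the spread within IPMK cKO lay in 1 library. IPMK cKO replicate 1 was the lowest of the 6 libraries for Rgs1, Rgs2, Rgs14, Rgs16 and S1pr1, 5 of the 10 genes, and the highest for S1pr4; over all genes tested it was the lowest for 34.7%. IPMK cKO replicate 3 was the highest library for 4 of the 10 genes, against 16.2% of all genes tested. IPMK cKO replicate 1 was also set against the median of the other 5 libraries. Its log2 ratios were −1.36 for Rgs1, −0.92 for Rgs2, −2.66 for Rgs14, −4.37 for Rgs16 and −1.18 for S1pr1. In the same library Rgs3, Rgs19 and S1pr4 had log2 ratios of +0.47, +0.41 and +0.70, so the low values were not a common shift of all members. Wild type replicate 2 was the lowest library for another 4 genes (Rgs3, Rgs10, Rgs19 and S1pr4), although it was the lowest for only 7.26% of all genes tested. Neither IPMK cKO replicate 2, IPMK cKO replicate 3 nor wild type replicate 3 was the lowest for any member. Over the whole table IPMK cKO replicate 1 also had the lowest sample weight in limma-voom, 0.297 against 0.808 to 2.03 in the others; its part in these values was not tested.

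**Figure D3:**
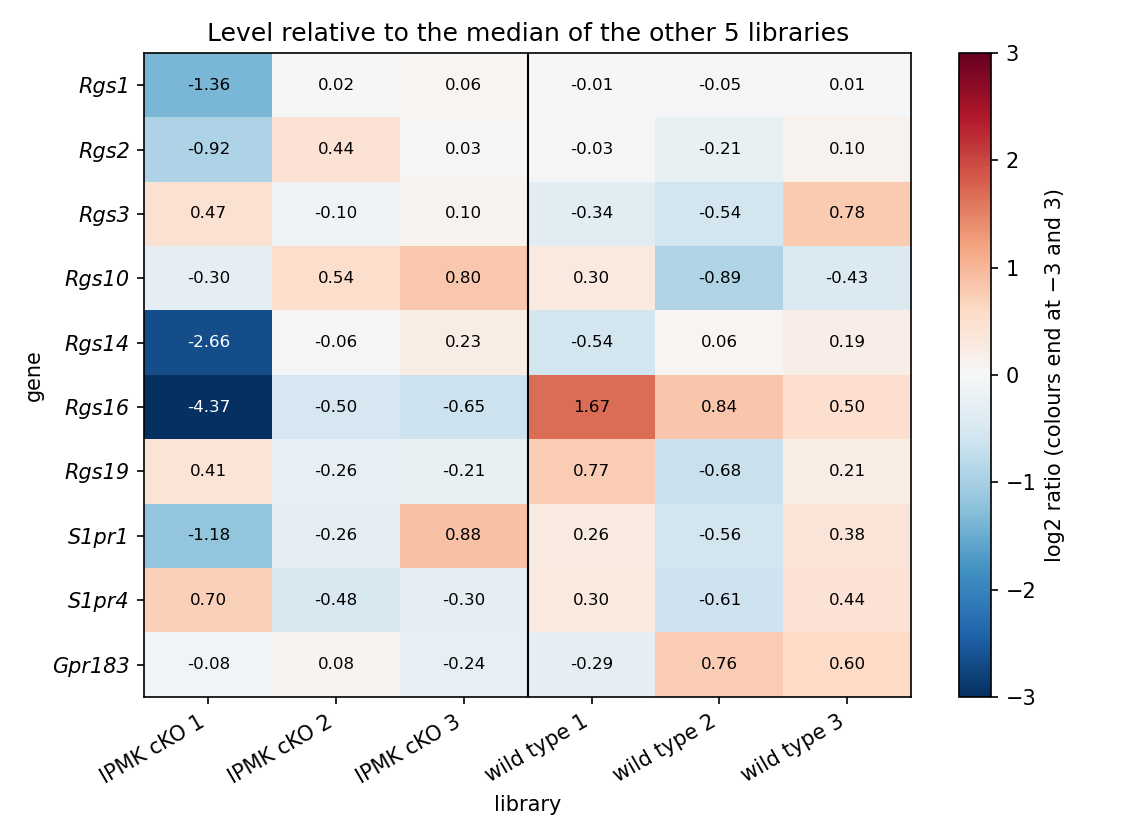
Log2 ratio of each gene's level (rows) to the median of the other 5 libraries, in the 3 IPMK cKO libraries and then the 3 wild type libraries (columns); blue is lower, red is higher, and the values are printed in the cells. The first column holds the lowest values, down to −4.37 for Rgs16, beside ratios above 0 for Rgs3, Rgs19 and S1pr4.

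Shares within the RGS family need no scaling between libraries. The 7 members made up 88.6%, 97.4% and 96.6% of all RGS counts in IPMK cKO and 95.5%, 96.5% and 98.2% in wild type, so most RGS counts in each library came from them. The members were chosen with earlier results of these data known, so a high share may follow from that choice. Rgs10 took 34.7%, 30.4% and 34.2% of the RGS counts in IPMK cKO, against 27.3%, 18.3% and 21.0% in wild type. Rgs1 took 16.3%, 25.5% and 24.6% in IPMK cKO and 26.6%, 32.3% and 27.8% in wild type. Rgs10 was thus the leading RGS transcript in every IPMK cKO library, and in wild type it led only in replicate 1, by a margin of less than 1 percentage point over Rgs1. The share of Rgs16 was 0.130%, 1.15% and 0.967% in IPMK cKO and 3.86%, 2.72% and 1.78% in wild type. The shares of Rgs10, Rgs1 and Rgs16 did not overlap between the groups, and those of Rgs14, Rgs2, Rgs3 and Rgs19 did. In CPM, Rgs1 and Rgs10 overlapped. The shares are tied to each other, since 1 can grow only as others shrink, and no share over all genes stands beside them, so nothing is read from this count.

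**Figure D4:**
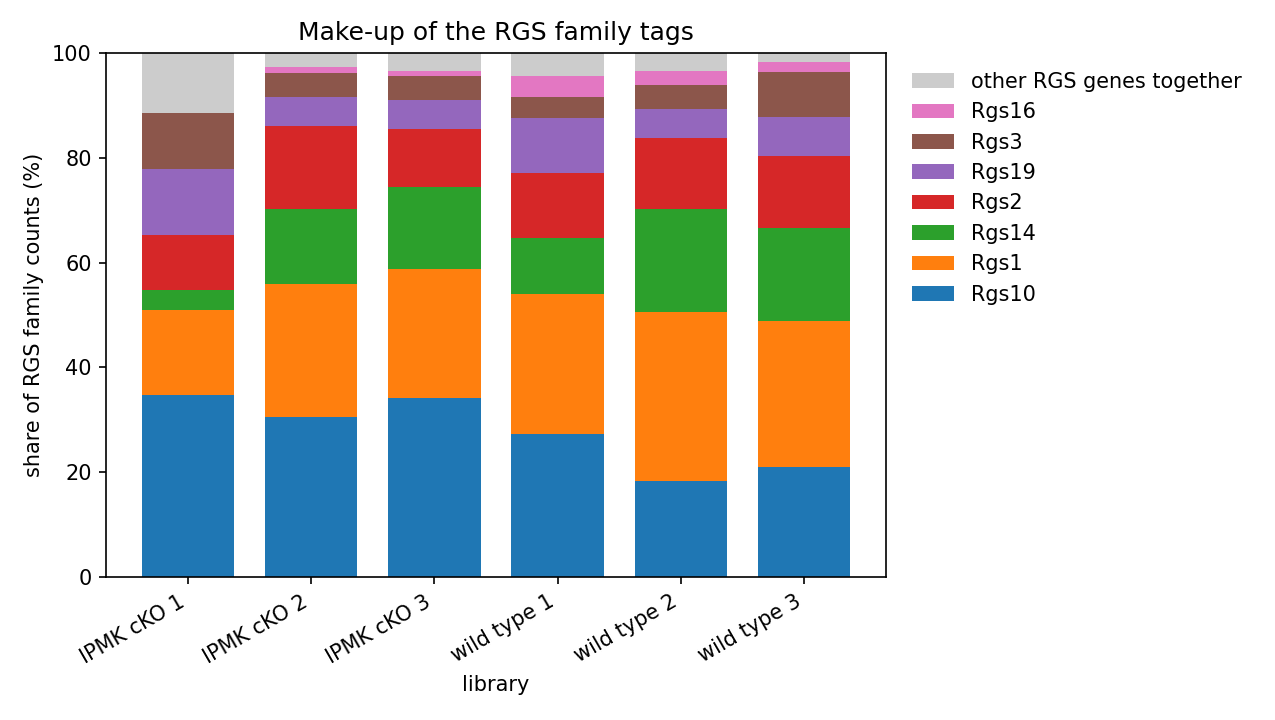
Share of each gene in all RGS family counts (vertical axis, %) in the 3 IPMK cKO libraries and then the 3 wild type libraries, as stacked bars that add up to 100%. The lowest block, Rgs10, is 30.4% to 34.7% in IPMK cKO and 18.3% to 27.3% in wild type, and Rgs16 is a thin block that is hardly visible in IPMK cKO replicate 1.

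The ratio of Rgs1 to Rgs10 counts was 0.471, 0.839 and 0.721 in IPMK cKO and 0.977, 1.76 and 1.33 in wild type, with no overlap. This ratio was picked after its values were seen. Among the 45 pairs of members, 7 had ratios that did not overlap between the groups, against 10.3% of all pairs among the 8426 genes tested and counted in every library. Of those 7 pairs, 6 involved Rgs16 and the other was Rgs1 with Rgs10. Pairs share their genes, and the difference from the background was not tested.

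The remaining RGS genes were scarce. Of 14 other family members, 8 had no count in any library (Rgs4, Rgs5, Rgs6, Rgs7, Rgs8, Rgs18, Rgs21 and Rgs22), 3 were counted but too low to test and 3 were tested. Rgs9 is best known from photoreceptors and the striatum. It had 32.8, 12.2 and 20.7 CPM in IPMK cKO, against 16.4, 6.29 and 6.55 CPM in wild type (log2 fold change +1.17, SE 0.78). The groups overlapped. Rgs12 (+0.13, SE 1.42) and Rgs11 (−0.84, SE 2.29) averaged under 10 CPM in both groups, and none of the 3 was called.

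Of 30 genes for G protein subunits, on which RGS proteins and these receptors act, 17 were tested and 0 rose or fell by edgeR's adjusted p. Their median log2 fold change was −0.21, with 8 estimates above 0 and 9 below. None of the 17 lay wholly higher and 3 lay wholly lower in IPMK cKO (Gng2, Gnas and, named after its values were seen, Gnai3), where 4.74% and 5.66% of all genes tested did. Gnai2, the main Gαi subunit of lymphocytes and the partner of S1PR1, S1PR4 and GPR183, was the most abundant at 1251 ± 375 CPM in IPMK cKO and 1082 ± 35.7 CPM in wild type (SD, n = 3 each; +0.21, SE 0.28). Other abundant subunits were Gnas, the stimulatory α subunit (−0.40, SE 0.26), the β subunit Gnb1 (+0.04, SE 0.36) and the α subunit Gna13 (+0.06, SE 0.27). The smallest p-values were those of the γ subunits Gngt2 (+1.61, SE 0.65), Gng2 (−0.98, SE 0.43) and Gng10 (−0.97, SE 0.43) and of Gnaq (−1.29, SE 0.57), the α subunit that activates phospholipase C and so calcium release. Gnaq had 9.99, 48.9 and 24.6 CPM in IPMK cKO and 86.0, 74.6 and 43.7 CPM in wild type, with overlap between IPMK cKO replicate 2 and wild type replicate 3. Gng2 was at 24.6, 44.0 and 22.5 CPM in IPMK cKO and 60.4, 61.9 and 58.0 CPM in wild type. These 4 of the 17 had an unadjusted p under 0.05, against 2.56% of all genes tested, and were not called (edgeR adjusted p = 0.9999 for each).

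Of 12 genes for the G protein cycle and for receptor desensitisation, 11 were tested and 0 were called (8 estimates above 0 and 3 below, median +0.11). The receptor kinases Grk6 (+0.10, SE 0.27) and Grk2 (listed as Adrbk1; −0.15, SE 0.29) and the Gαi-binding protein Gpsm3 (+0.01, SE 0.28) were the most abundant and had estimates near 0. Ric8a, a chaperone of Gα subunits listed as Ric8, followed (+0.11, SE 0.61). The smallest p-values belonged to Gpsm2 (−1.96, SE 1.03), Grk4 (+1.80, SE 1.23), Arrb2 (+0.66, SE 0.65) and Arrb1 (+0.42, SE 0.76), the last 2 being arrestins that uncouple receptors from G proteins. Arrb2 had 127, 25.0 and 20.9 CPM in IPMK cKO and 32.2, 32.0 and 45.1 CPM in wild type. Ric8a had 129, 31.7 and 21.0 CPM in IPMK cKO and 43.1, 63.5 and 60.8 CPM in wild type. For both genes IPMK cKO replicate 1 was the highest library, and the other IPMK cKO libraries lay below every wild type library. Arrb1 was also highest in IPMK cKO replicate 1, at 89.5 CPM. Gpsm2 and Grk4 averaged under 20 CPM in both groups, and they were the genes of the 11 whose groups did not overlap (Gpsm2 lower, Grk4 higher; 5.66% and 4.74% of all genes tested).

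Of 18 genes of the S1P and oxysterol axis outside the 3 receptors, 8 were tested and 0 were called (5 estimates above 0 and 3 below, median +0.38). Of the 8, Sphk2 lay wholly higher and Sgpp1 wholly lower in IPMK cKO, as did 4.74% and 5.66% of all genes tested. Klf2, the transcription factor known to switch on S1pr1 in T cells, had 389, 479 and 697 CPM in IPMK cKO and 417, 352 and 443 CPM in wild type (+0.37, SE 0.29). Klf2 overlapped between the groups. Cd69, whose protein pulls S1PR1 from the cell surface, had 14.2, 50.3 and 63.0 CPM in IPMK cKO and 17.9, 30.6 and 33.4 CPM in wild type (+0.64, SE 0.59), and was named after its values were seen. Sphk2, a kinase that makes S1P, had 83.7, 61.7 and 112 CPM in IPMK cKO, against 44.4, 36.4 and 52.7 CPM in wild type (+0.95, SE 0.38, edgeR adjusted p = 0.9999). It was the only gene of the 8 with an unadjusted edgeR p under 0.05, against 2.56% of all genes tested. Among the genes for enzymes that remove S1P, the estimates were −0.86 (SE 0.73) for the phosphatase Sgpp1 and −0.46 (SE 0.40) for the lyase Sgpl1. The second phosphatase, Sgpp2, was at +0.39 (SE 1.17), and Plpp1 (listed as Ppap2a) was at −0.48 (SE 0.70). Sgpp2 and Plpp1 were named after their values were seen. Sgpp1 had 3.38, 38.4 and 48.5 CPM in IPMK cKO, against 55.1, 53.4 and 55.2 CPM in wild type. Of the enzymes that make or break down the oxysterol ligand of GPR183, Ch25h and Hsd3b7 were too low to test and Cyp7b1 had no count.

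Genes whose profile over the 6 libraries was most like that of a member were sought among 5756 tested genes with a mean of at least 20 CPM, by the root mean square difference of centred and scaled log2 levels. For Rgs1 they were Cndp2, Nfatc3 and Bcl9 (differences of 0.062, 0.066 and 0.070 SD, against a median of 1.36 SD over all candidates). Nfatc3 had 116, 499.7 and 509 CPM in IPMK cKO and 524, 462 and 467 CPM in wild type, with the same low value in IPMK cKO replicate 1. For Rgs16 they were Setdb1, Srgn and Stx11 (0.057, 0.076 and 0.102 SD). Srgn, the core protein of secretory granules, had 181, 559 and 518 CPM in IPMK cKO and 965, 740 and 737 CPM in wild type, so it shared with Rgs16 both the low value of IPMK cKO replicate 1 and the absence of overlap. For S1pr1 the nearest were Rpl39, Arap1 and Terf2 (0.125 to 0.139 SD), and for Gpr183 they were Vasp, Syt11 and Dgkz (0.084 to 0.185 SD). These genes were picked by their values in the same 6 libraries, so shared low values and shared absence of overlap largely follow from the choice. With 6 libraries, many genes come close to any profile, and these names describe likeness only.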

How the data were processed

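The authors deposited raw counts of reads per gene symbol for each library, per the file headers; libraries were made from total RNA with the Lexogen QuantSeq 3′ tag kit, per the labels' protocols. The submitters' processing notes name Bowtie2, edgeR, mm10 and hg19, with no role; the sources used here do not give the counting program, annotation, strand setting or filters. Groups followed the labels. In edgeR 4.0.16 (R 4.3.3), TMM factors scaled the libraries and filterByExpr (minimum 10 counts) left 10475 genes. The quasi-likelihood test set IPMK cKO against wild type, and p-values were adjusted by Benjamini-Hochberg across the whole table (threshold 0.05). The SE is the estimate over the square root of F, and CPM use TMM-scaled library sizes. Lists were described by counts and medians. Alternatives used DESeq2 1.42.0 and limma 3.58.1. The procedure was also run on simulated data. The share of changes it recovered at the spread of these libraries is not given here, so nothing is read from that run. The members, lists and naming rule (all members; per companion list, the 4 smallest p and the 4 highest means; the 2 most abundant markers per list; the 3 nearest profiles of Rgs1, Rgs16, S1pr1 and Gpr183) were chosen with earlier results of these data known. Coordinates come from GENCODE M21 (mm10), promoters from RefSeq GRCm38.p6.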

Additional observations from a re-analysis of the deposited data

How the results depend on the processing

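Under 17 alternatives 0 of the 10 members and 0 genes of the companion lists were called; the members' smallest adjusted p was 0.776 (edgeR, Rgs16 without IPMK cKO replicate 2). Over the whole table DESeq2 called 4 genes (Phospho1 higher; S100a6, S100a11 and Smpdl3b lower). Gdpd3 alone was called, as lower, without IPMK cKO replicate 1, without both libraries numbered 1, and by limma-voom with sample weights, which was chosen after seeing the data. Leaving out single libraries gave 0 to 1 calls. Gdpd3 had 320, 5.62 and 7.71 CPM in IPMK cKO and 241, 279 and 326 CPM in wild type; these genes were named after their values were seen. Members without overlap numbered 1 to 3 when single libraries were left out, where 7.0% to 10.9% of all genes lay wholly higher and 8.90% to 13.9% wholly lower, and 4 without both numbered 1 (Rgs1 and Rgs10 higher, Rgs16 and Gpr183 lower), where 14.6% and 17.4% of all genes lay wholly higher and lower. Log2 fold changes kept their sign in every alternative for Rgs10 (0.37 to 1.02), Rgs16 (−2.15 to −0.76) and Gpr183 (−0.72 to −0.29). The other 7 changed sign at least once; over all 10 members, 25 of 170 recomputed values had the opposite sign. Leaving out single libraries gave −0.50 to 0.047 for Rgs1, −0.36 to 0.26 for Rgs2, −0.17 to 0.54 for Rgs3, −0.73 to 0.17 for Rgs14, −0.40 to 0.22 for Rgs19, −0.53 to 0.36 for S1pr1 and −0.27 to 0.20 for S1pr4. Without both numbered 1 the signs turned for Rgs1 (0.057), Rgs2 (0.28), Rgs3 (−0.24), Rgs19 (0.065) and S1pr4 (−0.20). Weighted voom gave 0.15 for Rgs2, −0.021 for Rgs3 and −0.10 for S1pr4, and unweighted voom −0.10 for S1pr1. Scaling by total counts, which moved the median of all genes to −0.17, gave −0.19 for Rgs3, −0.10 for S1pr1 and −0.21 for S1pr4. With a replicate block 0 members and 0 genes were called and S1pr1 was at −0.12. Same-numbered libraries deviated together only weakly (correlations 0.0454, 0.0877 and 0.0265), so the numbers were not taken to pair them, although each library correlated best with its own number. The causes of these shifts were not tested. Counts of single digits in 1 library, as for Rgs16, limit what the depth can show.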
